A study of Mus musculus with 189 samples.

Results

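Integrin receptors were followed at the level of their RNA in single mast cells and mast cell precursors of the mouse peritoneal cavity. The set held 10 chains chosen by name: the alpha chains Itga4, Itgae, Itga2b, Itgal, Itgam and Itgax and the beta chains Itgb7, Itgb1, Itgb3 and Itgb2. They are 10 of the 46078 genes in the table. The study sequenced 189 cells from 4 female C57BL/6 mice, 94 labelled mature mast cells and 95 labelled basophil-mast cell progenitors (BMCPs), a population named as a precursor of both lineages. No genetic change or treatment of the mice is given in the labels, and their age is not given. Every cell was sorted as live, negative for lineage markers and positive for c-Kit (the stem cell factor receptor) and FcεRI (the IgE receptor of high affinity). The gate for mature mast cells was low in surface integrin β7 and high in side scatter, a measure of granularity, and that for BMCPs was high in integrin β7 and low in side scatter. One member, Itgb7, therefore encodes the protein on which the groups were separated. Cells were index-sorted into 2 plates of 96 wells, and full-length cDNA was made from poly(A) RNA with 23 PCR cycles and no molecular identifiers.

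Integrins are adhesion receptors built from 1 alpha and 1 beta chain, and a chain reaches the cell surface as part of such a pair. The beta chain binds talin and kindlin inside the cell, which switches the receptor to its active form, and the alpha chain does much to set the ligand. In the mast cell lineage, α4β7 and α4β1 are known for bringing progenitors from the blood into intestine and lung through the vessel ligands MAdCAM-1 and VCAM-1, and αEβ7 binds E-cadherin on epithelium. The αIIbβ3 receptor is the fibrinogen receptor of platelets, and β2 pairs with αL, αM, αX or αD to form the leukocyte integrins.

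Levels are given as CPM, reads per 1000000 reads on mouse genes in the same cell or pool of cells. The 94 mature mast cells and the 93 BMCPs with at least 100000 such reads were kept, with a median of 1255267 reads (561600 to 2152221) and 1247890 reads (344022 to 2091665). The labels assign no cell to a mouse. Each group was therefore 1 pooled sample, no test between groups was possible, and no p-value is given. Intervals are exact 95% intervals for counting error only: Poisson for pooled CPM and Clopper-Pearson for shares of cells. They are too narrow as errors of a read count, since PCR copies of 1 molecule were counted as separate reads, and they do not cover differences between mice. A cell was counted as having a chain at 10 CPM or more. A median mature mast cell had 4134.5 detected genes and a median BMCP 3750, or 2896 and 2471 after both were thinned to 100000 reads, and the part of this difference in the shares below was not tested.

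All 8 defining mast cell genes checked, among them Kit, Fcer1a, Cpa3 and Cma1, were above 5 CPM in both groups. Pooled Kit was 980 CPM in the mature group and 1144 CPM among the BMCPs, and pooled Cpa3, the mast cell carboxypeptidase, was 73559 and 53996 CPM. No macrophage, dendritic, NK cell, neutrophil or erythroid marker on the lists reached 5 CPM in either pool. Lck and Cd2 of the T cell list and Ccr3 of the eosinophil list passed it in the BMCP pool, at 7.18, 16.8 and 15.9 CPM, each from 1 or 2 cells. Those of Cd2 were BMCP 46 and BMCP 80. Of the B cell list, Ighm, an immunoglobulin heavy chain gene, was read in both pools, at 227.8 CPM with 46 mature mast cells having it and 357.9 CPM with 25 BMCPs. Cd79b was at 26.6 CPM in the mature pool, from 8 cells. A pair of BMCPs went against their label in B cell genes, Kit and Cpa3, and are named where results below rest on them. BMCP 46 and BMCP 80 held 4795 and 6527 CPM of Cd79a, a B cell receptor component, but 1.47 and 3.51 CPM of Kit and 113 and 160 CPM of Cpa3. Those Kit and Cpa3 values also show the level at which a mast cell gene was read in cells that lacked the mast cell profile. Fcer1a was at 10 CPM or more in 87 of 93 BMCPs. Among those below it were also BMCP 51 and BMCP 52, at 6.65 and 4.80 CPM. These cells had 988 and 747 CPM of Kit and 17240 and 49842 CPM of Cpa3.

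The chains fell into 3 kinds. Itgb7, Itgb2, Itgb1 and Itga2b were read widely in both groups and lay within 2-fold between them by summed reads. Itga4 was found in many BMCPs and few mature mast cells, and Itgal in a handful of BMCPs. Itgae, Itgb3, Itgam and Itgax stayed under 5 CPM in both pools. Of the 10 members, 6 passed 5 CPM in at least 1 group, Itgal only through BMCPs. Itga4 and Itgal were at least 2-fold higher in BMCPs, a direction taken by 19.2% of the 10556 genes that passed 5 CPM, and no member was at least 2-fold higher in mature mast cells, against 9.9% of those genes. The median log2 ratio of mature over BMCP CPM (with 1 CPM added to both) was -0.25 over all those genes, so a negative ratio of that size was the middle of the table. Scaled by TMM factors that median was 0.00, and scaled by the ERCC spike-in it was 0.68.

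**Figure D1:**
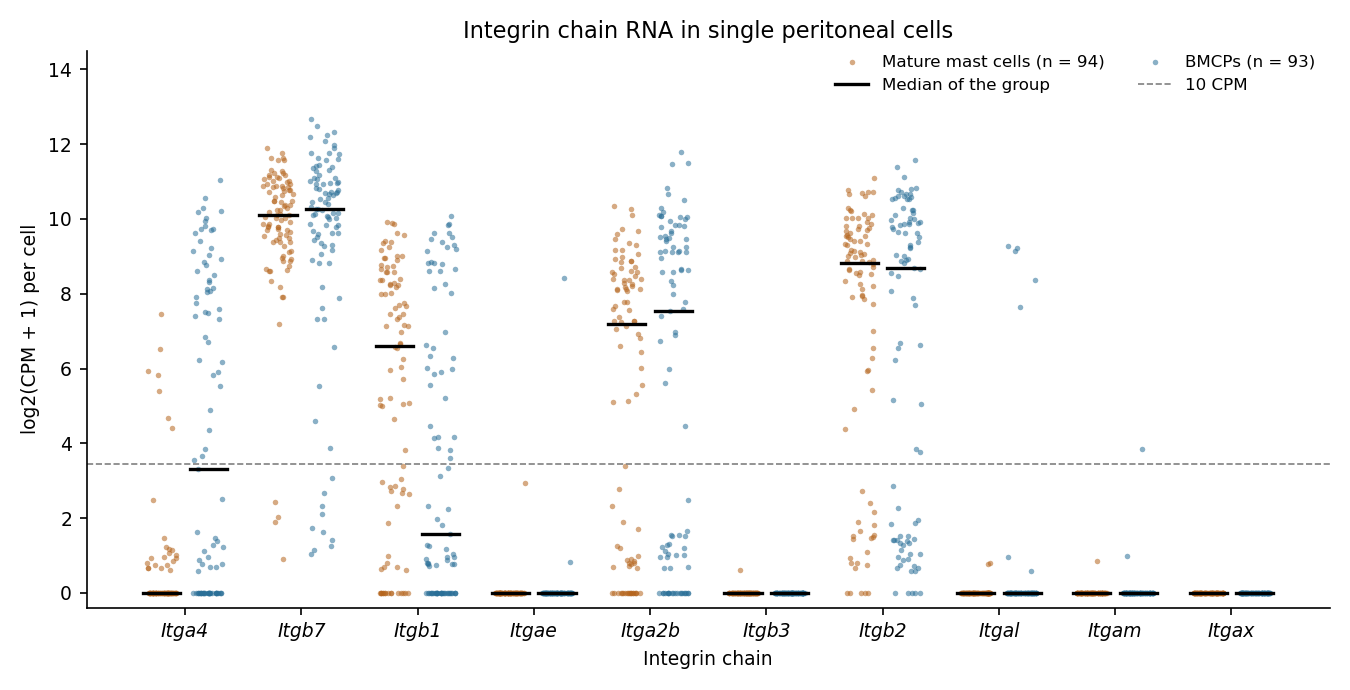
The level of each chain in each cell is plotted as log2(CPM + 1), with 1 point per cell, for 94 mature mast cells and 93 BMCPs. Black bars are group medians and the dashed line marks 10 CPM. Itgb7 lies above the line in 90 mature mast cells and 83 BMCPs, Itga4 in 7 and 46, and Itgb3 and Itgax lie at or near 0 throughout.

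The beta chain of the gate, Itgb7 (ENSMUSG00000001281, minus strand of chromosome 15, 102215995 to 102231944 in GRCm38), was the most abundant member in both groups. Single mature mast cells ranged from 0.87 CPM through a median of 1096 CPM to 3801 CPM, and single BMCPs from 1.06 through 1225 to 6519 CPM. The ranges overlapped almost entirely, although the 2 groups had been sorted apart on the surface protein. The mature pool held 1292 CPM (1285 to 1298) and the BMCP pool 1537 CPM (1530 to 1544), a log2 ratio of -0.25. That ratio equalled the median of all genes, was -0.00 with TMM factors and turned to 0.66 with ERCC scaling (0.45 without BMCP 55, in which spike-in RNA made up 3.89% of reads). Itgb7 was present in 90 of 94 mature mast cells (95.7%, 89.5 to 98.8%) and, among BMCPs, in 83 of 93 (89.2%, 81.1 to 94.7%). In mature mast cells the 2 states were well separated: the 90 cells had at least 146.2 CPM, and the other 4 had at most 4.41 CPM.

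Itga4, which encodes the α4 chain that joins either β7 or β1, showed the opposite picture. It lies on the plus strand of chromosome 2 (ENSMUSG00000027009, 79255426 to 79333123 in GRCm38). The promoter windows of this pair are shown because 1 chain of the pair was read in nearly every cell and the other mostly in BMCPs. Each run is the 250 bases before the RefSeq gene start in GRCm38.p6, read 5′ to 3′ on the strand of the gene, at chr2:79255176-79255425 for Itga4 and chr15:102231936-102232185 on the minus strand for Itgb7. The RefSeq start of Itgb7 lies within the first exon that GENCODE gives. Capitals mark matches to motifs of 3 factor families of blood cells.
Itga4: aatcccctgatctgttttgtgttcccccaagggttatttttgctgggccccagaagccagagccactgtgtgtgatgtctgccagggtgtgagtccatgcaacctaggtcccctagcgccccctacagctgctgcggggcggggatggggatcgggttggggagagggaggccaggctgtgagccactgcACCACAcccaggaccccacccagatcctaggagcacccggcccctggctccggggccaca
Itgb7: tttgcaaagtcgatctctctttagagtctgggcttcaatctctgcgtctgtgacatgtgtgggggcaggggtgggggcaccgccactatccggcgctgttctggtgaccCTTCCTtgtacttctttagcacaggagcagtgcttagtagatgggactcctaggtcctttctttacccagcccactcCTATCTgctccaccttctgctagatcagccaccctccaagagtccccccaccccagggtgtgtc
Motifs were searched on both strands. A GATA match was any of AGATAA and its variant AGATAG, or TGATAA and its variant TGATAG. A RUNX match was the motif TGTGGT. An ETS match was the motif AGGAAG. The Itga4 window held a RUNX match on the reverse strand, 60 bases before the start, and no match to the others. The Itgb7 window held a reverse GATA match 64 bases and a reverse ETS match 141 bases before the start. Of 32851 RefSeq windows of the same length, 26.5% held the GATA, 14% the RUNX and 29.5% the ETS motif, so each match is common. The matches describe the sequence only, and binding was not measured.

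Itga4 ranged from 0 through a median of 0 to 175.3 CPM in single mature mast cells, and from 0 through 8.91 to 2093 CPM in single BMCPs. Only 7 of 94 mature mast cells had it (7.45%, 3.05 to 14.7%), with a median of 56.2 CPM in those cells. In BMCPs it was present in 46 of 93 cells (49.5%, 38.9 to 60.03%), with a median of 302.4 CPM in those cells. Both the number of cells with Itga4 and the level in those cells were thus higher in BMCPs, while 47 BMCPs lay below 10 CPM like most mature mast cells. Pooled Itga4 was 5.63 CPM (5.21 to 6.07) in the mature group. In the BMCP group it was 221.5 CPM (218.8 to 224.1), 39.3 times higher, with a log2 ratio of -5.07 (-5.18 to -4.96). It was -4.84 with TMM factors and -4.22 with ERCC scaling. Mature mast cell 27 alone held 39.9% of the group's Itga4 reads, and with that cell left out the log2 ratio was -5.65. When the cells were split into 2 sets by their order in the table, the ratio was -3.92 and -6.87, so its size was not stable, while the share of BMCPs with Itga4 was 48.9% and 50.0%. Of the Itga4 exon bases, 8.04% are shared with Cerkl on the opposite strand, which had 26 and 914 reads of its own, against 669 and 26470 for Itga4.

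Read together in the same cells, Itga4 and Itgb7 showed that the alpha chain was the one missing more often. Both Itga4 and Itgb7 were present in 7 of 94 mature mast cells (7.45%, 3.05 to 14.7%). Among BMCPs both were present in 38 of 93 (40.9%, 30.8 to 51.5%). A further 83 mature mast cells and 45 BMCPs had Itgb7 without Itga4. The reverse, Itga4 without Itgb7, was seen in no mature mast cell and in 8 BMCPs. Itgb7 was present in 82.6% of the 46 BMCPs with Itga4 (68.6 to 92.2%) and in 95.7% of the 47 without (85.5 to 99.5%), so cells with the alpha chain did not have its partner more often. Across cells the levels were not ordered alike either, with a Spearman rho of -0.04 over 94 mature mast cells and 0.03 over 93 BMCPs. These correlations describe cells that share plates and unknown mice, and CPM of a cell share 1 total.

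**Figure D2:**
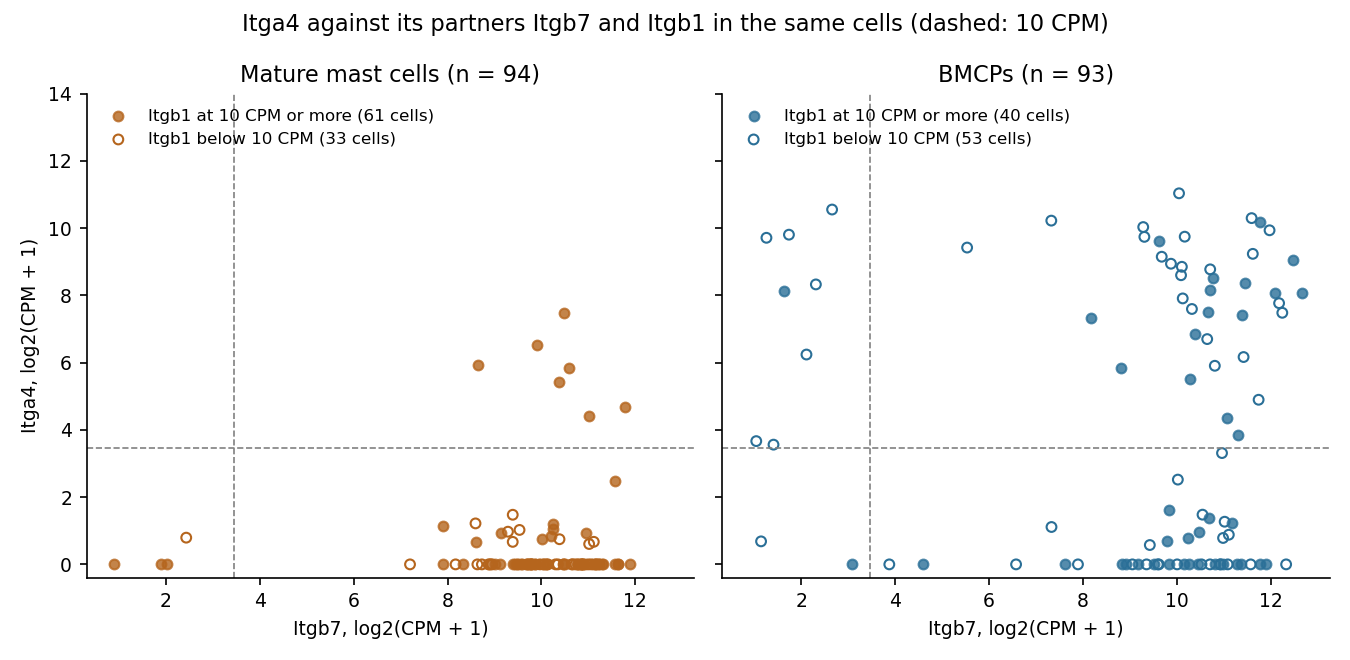
Itga4 is plotted against Itgb7 in each cell, both as log2(CPM + 1), for mature mast cells (left) and BMCPs (right). Filled points are cells with Itgb1 at 10 CPM or more, and dashed lines mark 10 CPM. The upper right quadrant holds 7 mature mast cells, all filled, and 38 BMCPs, and the upper left holds 8 BMCPs.

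Itgb1 (ENSMUSG00000025809, plus strand of chromosome 8, 128685654 to 128733200) encodes the β1 chain, the partner of α4 in the VCAM-1 receptor and of many matrix-binding alpha chains. Single mature mast cells ranged from 0 through a median of 96.9 to 972.8 CPM, and single BMCPs from 0 through 1.97 to 1080 CPM. It was present in 61 of 94 mature mast cells (64.9%, 54.4 to 74.5%) and 40 of 93 BMCPs (43%, 32.8 to 53.7%), while the cells that had it were alike, with medians of 258.2 and 295.5 CPM. The share was thus lower in BMCPs, by an amount that depended on the setting. With cells thinned to 100000 reads, where 10 CPM is 1 read, it was 72.3% and 44.1%. With all reads kept, 78 of 94 and 62 of 93 cells had at least 1 read. In the first set by table order 33 of 47 and 20 of 47 cells had it at 10 CPM. In the second set 28 of 47 and 20 of 46 did. In the BMCPs, Itgb1 tended to be higher in cells with more detected genes (rho 0.37 over 93 cells), and the part of that in the share was not tested. Pooled Itgb1 was 200.6 and 155.4 CPM, a log2 ratio of 0.37 (0.33 to 0.41), which was within 2-fold by summed reads and TMM factors (0.61) and past it with ERCC scaling (1.27, or 1.06 without BMCP 55).

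The α4β1 pair was present in 7 of 94 mature mast cells (7.45%) and in 17 of 93 BMCPs (18.3%, 11 to 27.6%). In BMCPs, Itga4 and Itgb1 leaned apart: 29 cells had Itga4 without Itgb1, 23 had Itgb1 without Itga4, and rho was -0.27 over 93 cells (-0.28 at 100000 reads per cell). Itgb1 was present in 17 of the 46 BMCPs with Itga4 (23.2 to 52.5%) and 23 of the 47 without (34.1 to 63.9%), and these intervals overlap. Sorted by beta chain, the 46 BMCPs with Itga4 comprised 16 with both Itgb7 and Itgb1, 22 with Itgb7 alone, 1 with Itgb1 alone and 7 with neither. All 7 mature mast cells with Itga4 had both beta chains. BMCP 80, a cell with B cell genes, was among the 7 BMCPs without a beta partner, at 892 CPM of Itga4 and 2.34 CPM of Itgb7.

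Both chains were set beside granule proteases in the BMCPs. The proteases were chosen after their values were seen. Of 3958 genes in these same cells, Gzmb ranked 1 by Spearman rho with Itga4, and Mcpt4 ranked 3 with Itgb1. The shares below therefore describe these cells and give no separate support. Itga4 was present in 37 of the 60 BMCPs with at least 100 CPM of Gzmb, granzyme B, (61.7%, 48.2 to 73.9%) and 9 of the 33 others (27.3%, 13.3 to 45.5%), and Itgb1 in 23 of the 34 with at least 1000 CPM of Mcpt4, a connective tissue mast cell chymase, (67.6%, 49.5 to 82.6%) and 17 of the 59 others (28.8%, 17.8 to 42.1%). With the proteases exchanged, Itga4 was present in 9 of the 34 Mcpt4 cells and 37 of the 59 others. Itgb1 was present in 19 of the 60 Gzmb cells and 21 of the 33 others. For Mcpt8, a basophil protease, Itga4 was present in 28 of 39 BMCPs with at least 100 CPM and 18 of 54 others. Itgb1 was present in 12 of those 39 (17 to 47.6%) and 28 of the 54 (37.8 to 65.7%), and these intervals overlap. Of the 6 genes on the basophil list, Mcpt8 (-6.72) and Itga2 (-3.10) were higher in the BMCP pool by log2 ratio. Prss34 (0.88), Cd200r3 (0.69) and Il3ra (0.44) were higher in the mature pool, and Cebpa had no read. Itga4 was not set beside those other genes. Itgb2, which was not used in choosing the proteases, was present in 65% of the Gzmb cells and 66.7% of the others.

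Itgae (ENSMUSG00000005947, chromosome 11, 73090583 to 73147446) encodes αE, the other partner of β7. It was close to absent. Mature mast cells had 7 reads in all, in 1 cell, which is 0.06 CPM, and BMCPs had 354 reads, of which 353 lay in BMCP 67 (342.8 CPM). BMCP 67 was also the BMCP with the most Itga4 (2093 CPM) and had 1058 CPM of Itgb7, so it held both alpha partners of that beta chain. With Itga4 and Itgae counted together, 7 of the 90 mature mast cells with Itgb7 had an alpha partner for it (7.78%, 3.18 to 15.4%), and 38 of the 83 BMCPs (45.8%, 34.8 to 57.1%). These shares depend on the level asked for: with 1 read or more they were 27.7% and 65.6%.

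Itga2b (ENSMUSG00000034664, minus strand of chromosome 11, 102453297 to 102470122) encodes αIIb, also known as CD41, and Itgb3 (ENSMUSG00000020689, plus strand of chromosome 11, 104608000 to 104670476) encodes β3, its partner on platelets. Single mature mast cells ranged from 0 through a median of 144.7 to 1305 CPM of Itga2b, and single BMCPs from 0 through 186.4 to 3557 CPM. The alpha chain was present in 58 of 94 mature mast cells (61.7%, 51.1 to 71.5%) and, among BMCPs, in 54 of 93 (58.1%, 47.4 to 68.2%). These shares lay close together, and their intervals do not cover differences between mice. Pooled levels were 228.1 CPM (225.4 to 230.9) and 423.5 CPM (419.9 to 427.3), a log2 ratio of -0.89 (-0.92 to -0.86). It was -0.64 with TMM factors and 0.02 with ERCC scaling, so its direction was not kept. It passed 2-fold in the first set by table order (-1.08) and, barely, by the mean of single-cell CPM (-1.001).

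Against this, Itgb3 had 1 read in all mature mast cells and 0 reads in all BMCPs, where 3 reads would be 0.0251 CPM. None of the 58 mature mast cells (0 to 6.16%) and none of the 54 BMCPs (0 to 6.60%) with Itga2b had Itgb3. Markers of platelets and their precursors were checked beside this result. Pf4, Ppbp, Gp5 and Gp6 had no read in either group, Gp9, Gp1bb and Treml1 were under 1 CPM in both pools, and Gp1ba was at 139.8 CPM, from 52 cells, in the mature pool and at 145.2 CPM, from 34 cells, in the BMCP pool. Gp1ba ran from 0 to 1011 CPM in single mature mast cells and from 0 to 1476 CPM in single BMCPs. Leaving out cells with 100 CPM or more of the markers of another cell type removed mainly cells with Gp1ba or Ighm, left 27 and 46 cells and moved the Itga2b ratio to -2.11.

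Itgb2 (ENSMUSG00000000290, plus strand of chromosome 10, 77530252 to 77565708) encodes β2, the common chain of the leukocyte integrins. Single mature mast cells ranged from 0 through a median of 452.2 to 2183 CPM, and single BMCPs from 0 through 415.0 to 3069 CPM. It was present in 72 of 94 mature mast cells (76.6%, 66.7 to 84.7%) and 61 of 93 BMCPs (65.6%, 55 to 75.1%). The groups overlapped throughout. Pooled levels were 538.9 CPM (534.7 to 543.1) and 596.3 CPM (591.9 to 600.7), with a log2 ratio of -0.15 that became 0.10 with TMM factors and 0.77 with ERCC scaling.

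The alpha partners of β2 were nearly all missing from the cells that had it. Itgal (ENSMUSG00000030830, chromosome 7, 127296260 to 127335138), the αL chain that binds ICAMs, had 2 reads in mature mast cells and 3088 reads in BMCPs, a pooled level of 25.8 CPM (24.9 to 26.8). All but a few of these reads came from 5 BMCPs: numbers 80, 79, 46, 68 and 70, at 615.7, 594.2, 560.7, 328.0 and 199.5 CPM. Numbers 46 and 80 are the cells with B cell genes, and without them pooled Itgal was 12.2 CPM in 3 cells and the log2 ratio -3.69 in place of -4.72. Without BMCP 46 alone it was -4.11. The other 3 cells had 494 to 4575 CPM of Kit, and number 70 of them also had 1051 CPM summed over the B cell list. These log2 ratios depend on the 1 CPM added, since only 2 reads stand against the BMCPs. As a ratio of CPM without it, BMCPs were 1535 times higher, with a counting interval of 425 to 12681.

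Itgam (ENSMUSG00000030786, chromosome 7, 128062640 to 128118491), the αM chain of myeloid cells, had 1 read in mature mast cells and 6 in BMCPs, 5 of them in BMCP 19 at 13.5 CPM. That cell also held 184 CPM of the dendritic markers and 27 CPM of the NK cell markers, and their part in the result was not tested. Gm49368, a gene model absent from the count table used here, shares 68.7% of the Itgam exon bases. Itgax (ENSMUSG00000030789, chromosome 7, 128129547 to 128150657), the αX chain typical of dendritic cells, had no read in either group. With Itgad added, none of 72 mature mast cells with Itgb2 (0 to 4.99%) and 4 of 61 BMCPs (6.56%, 1.82 to 15.9%) had any alpha partner. The BMCPs with both Itgb2 and Itgal were numbers 70, 79 and 80, and numbers 46 and 68 had Itgal without Itgb2, so a cell with B cell genes was in each count. The αM partner among the 4 came from BMCP 19.

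The Itgb1 cells differed from this. Of the 12 alpha chains that join β1, at least 1 was present in 35 of 61 mature mast cells with Itgb1 (57.4%, 44.1 to 69.96%). In BMCPs it was so in 30 of 40 (75%, 58.8 to 87.3%). Among cells without Itgb1, 14 of 33 mature mast cells (42.4%) and 38 of 53 BMCPs (71.7%) also had 1 of those alpha chains, so in BMCPs the share was nearly the same with and without Itgb1. The partner found most often was Itga5, the fibronectin receptor chain, in mature mast cells (19 cells, then Itga9 in 12 and Itga4 in 7), and Itga4 in BMCPs (17 cells, then Itga5 in 10 and Itga9 in 7).

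**Figure D3:**
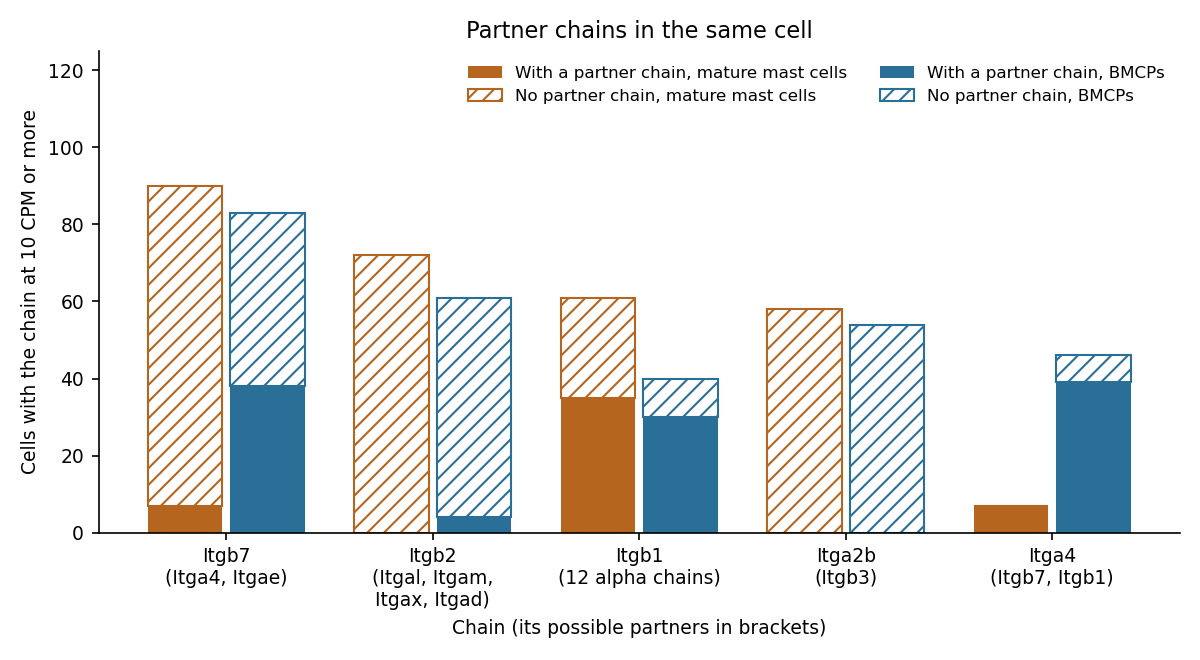
Bars give the number of cells with the named chain at 10 CPM or more, filled where a possible partner chain was also present in the cell and hatched where it was not. Itgb2 had a partner in 0 of 72 mature mast cells and 4 of 61 BMCPs, Itga2b in 0 of 58 and 0 of 54, and Itgb1 in 35 of 61 and 30 of 40.

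Compared per length, as CPM per kilobase of exon, the order of levels was the same at the top in both groups. Itgb7 led at 466.4 (mature) and 554.8 (BMCP) CPM per kilobase, followed by Itgb2 at 176.6 and 195.4. Itgb1 stood at 49.2 and Itga2b at 41.8 CPM per kilobase in mature mast cells, and Itga2b at 77.7 and Itgb1 at 38.1 in BMCPs. Itga4 stood at 0.40 CPM per kilobase among mature mast cells and 15.8 among BMCPs, next to Itga5 at 18.7, an order that turned when the longest transcript was used as the length. In mature mast cells, Itga2b likewise passed Itgb1 by that length. The beta chain Itgb7 was 1122 times its alpha partners Itga4 and Itgae per kilobase in mature mast cells and 33.6 times in BMCPs. Without mature mast cell 27 the first of these was 1804 times. With the longest transcript as the length and all cells kept, Itgb7 was 814 and 24.4 times its partners. In contrast, Itgb1 was 2.58 and 0.84 times the sum of its 12 by exon length, and 2.46 and 0.72 times by the longest transcript. A typical cell of either group had a median of 3 members, with at most 5 in mature mast cells and 6 in BMCPs.

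**Figure D4:**
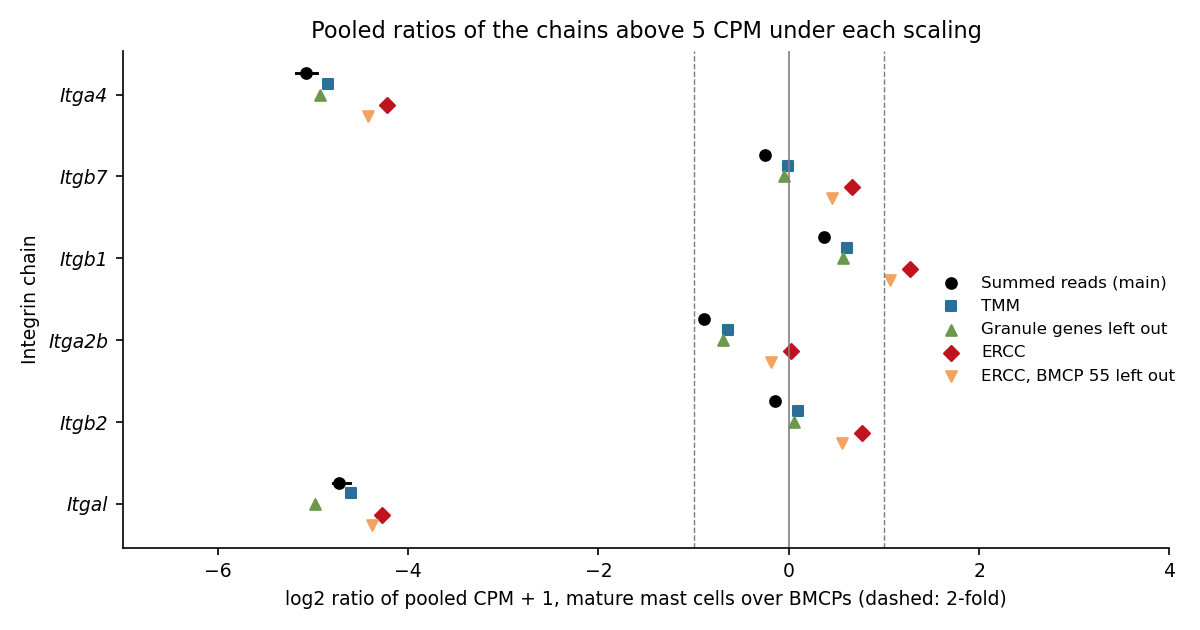
The log2 ratio of pooled CPM + 1, mature mast cells over BMCPs, is shown for the 6 chains above 5 CPM under 5 scalings, with the counting interval drawn for the summed reads. Dashed lines mark 2-fold. Itga4 and Itgal stay left of -4 under each scaling, while Itgb7 moves from -0.25 to 0.66 and Itgb2 from -0.15 to 0.77.

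For the members present in 20% to 95% of the cells of a group, the genes whose levels ordered the cells most alike were found by Spearman rho, among 3958 genes in BMCPs and 4951 in mature mast cells. For Itga4 in the 93 BMCPs these were Gzmb (0.48), the transporter Slc6a13 (0.43) and Mns1 (0.41). For Itgb1 in BMCPs they were Ednra, the endothelin A receptor (0.54), the tryptase Tpsab1 (0.50) and the chymase Mcpt4 (0.46). For Itgb7 in BMCPs they were Tbc1d9b (0.48), Tmem205 (0.36) and Ppp2r1a (0.35), for Itga2b Tes (0.44), Cpne2 (0.36) and Nsun2 (0.34), and for Itgb2 Ranbp3 (0.41), Gm5778 (0.38) and Gm13453 (0.37). None of these is a granule protease. In the 94 mature mast cells no rho exceeded 0.39: Itgb1 was nearest to Ccnl2 (0.39), Il3ra (0.37) and Wdr5 (0.35), Itga2b to Glmp (0.38), Fkbp3 (0.35) and Dtx3 (0.35), and Itgb2 to Fbxw2 (0.36), Sar1a (0.34) and Dclk3 (0.33). These are the highest of very many values in sparse counts of cells that share plates, and they are descriptions only.

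Among 16 other integrin chains, 6 passed 5 CPM, 3 of them at least 2-fold higher in BMCPs (3 of 6, against 19.2% of all genes) and none in mature mast cells. The 3 passed 5 CPM only through BMCPs, so nothing can be read from that count. Itga2, the collagen receptor chain, was 3.83 CPM among mature mast cells (2 had it) and 40.5 CPM among BMCPs (9 had it), a log2 ratio of -3.10 that was -4.42 without mature mast cell 65 and -2.53 without BMCP 53. Itga6, a laminin receptor chain, had 2 reads in mature mast cells, 17.6 CPM across BMCPs and 4 BMCPs with it, with 70.6% of it in BMCP 51, and leaving out BMCP 51 moved the log2 ratio from -4.19 to -2.61 (1044 times by CPM alone, with a counting interval of 289 to 8630). Itgav, the αV chain, was 2.43 and 8.27 CPM (-1.43), and fell inside 2-fold, at -0.98, without BMCP 68. Each of these therefore rested on few cells. The most abundant of the list, Itga5, was 71.2 CPM in the mature pool (28 cells had it) and 92 CPM in the BMCP pool (17 cells). Itga9, whose product joins β1, was 25.5 CPM (16 cells) and 16.7 CPM (11 cells).

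The machinery that activates integrins was read in both groups. Of 30 activation and adaptor genes, 24 passed 5 CPM, 6 were at least 2-fold higher in BMCPs (25%, against 19.2% of all genes), 2 in mature mast cells (8.33%, against 9.9%) and 16 lay within 2-fold. These shares are near those of all genes. Rasgrp2 passed 5 CPM only through BMCPs and Ptk2 only through mature mast cells, so nothing can be read from these counts. The list had a median log2 ratio of -0.21 against -0.25 over all genes. Fermt3, which encodes kindlin-3, was 486 CPM (mature) and 543 CPM (BMCP), Rap1b, a small GTPase of the pathway, 339 and 351 CPM, and Tln1, talin-1, 304 and 347 CPM. The pooled levels of these 3, the most abundant of the list, differed little, while Fermt3 was present in 95.7% of mature mast cells (89.5 to 98.8%) and 80.6% of BMCPs (71.1 to 88.1%) and Rap1b in 78.7% and 63.4%. Of the 6 higher in BMCPs, Skap1, an adaptor, was 11.6 and 60.3 CPM (-2.28) and Rassf5, a Rap1 effector also called RAPL, was 56.2 and 182.5 CPM (-1.68). Syk, a kinase downstream of integrins and of the IgE receptor, was 62.9 and 140.7 CPM (-1.15), and Apbb1ip, the Rap1 effector RIAM, 24.9 and 53.1 CPM (-1.06). The last pair fell inside 2-fold when 1 BMCP was left out (number 33, -0.97, and number 23, -0.90). With TMM factors Syk (-0.91) and Apbb1ip (-0.82) were inside 2-fold as well. The remaining 2 of the 6 were the values of single cells: Rasgrp2, a Rap1 exchange factor (-1.37), had 93.4% of its BMCP reads in BMCP 80 and was 0.97 without it, and Src (-1.26) had 67.1% in BMCP 95 and was 0.23 without it. Rasgrp2 also had 99.0% of its mature reads in mature mast cell 5, and was -2.80 without that cell.

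In mature mast cells, Pxn, which encodes the adaptor paxillin, was 55.9 CPM in 31 cells against 21.6 CPM in 10 BMCPs (1.33), and Ptk2, focal adhesion kinase, was 10.4 and 0.15 CPM (3.30). Ptk2 was present in 4 mature mast cells, with 51.6% of reads in number 66, and was 2.40 without it. Scaled by ERCC, 1 gene of the list was at least 2-fold higher in BMCPs and 6 in mature mast cells, where 7.25% and 32.7% of all genes were.

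Of 8 tetraspanins and partners, membrane proteins that associate with integrins, all passed 5 CPM and 2 were at least 2-fold higher in BMCPs (25%, against 19.2% of all genes). Cd9 was 43.3 CPM with 20 mature mast cells having it and 298.1 CPM with 47 BMCPs (-2.76), and Cd53 was 496 and 1166 CPM (-1.23). Cd53 was inside 2-fold with TMM factors (-0.98) and with ERCC scaling (-0.32). Cd81 was 2311 and 1634 CPM (0.50) and Cd63, which marks granule membranes, 1893 and 1894 CPM (-0.00).

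Of 19 genes for integrin ligands, 4 passed 5 CPM and 9 had no read in either group. Cdh1 and Icam2 were at least 2-fold higher in BMCPs (2 of 4, against 19.2% of all genes). Cdh1 passed 5 CPM only through BMCPs, so nothing can be read from that count. Cdh1, E-cadherin and the ligand of αEβ7, had 2 reads in mature mast cells and was present in 9 BMCPs, with a pooled level of 34 CPM (-5.11, or 2020 times by CPM alone with a counting interval of 559 to 16687). Its receptor chain Itgae was at 10 CPM or more in 1 BMCP. The ligands of αLβ2 were Icam2 at 13.5 and 41 CPM (-1.53), Icam1 at 75.6 and 101.2 CPM (-0.42) and Icam4 at 26.5 and 45.6 CPM (-0.76), mature values first. Mature mast cell 21 held 37.1% of the mature Icam1 reads, and without it the mature pool was 48.1 CPM and the log2 ratio -1.06, past 2-fold.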

How the data were processed

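The authors deposited 1 table of raw read counts per gene with a column per cell. Its gene rows, ERCC rows and summary rows have whole numbers, and a blank last column was not used. The submitters' processing notes name GSNAP, HTSeq 0.5.3p3 and the build mm10. The annotation release and whether counting used strand are not given in the sources used here, so overlapping genes are uncertain. Reads with no feature made up 12.5% of the mature and 16.2% of the BMCP total.

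Columns were mapped to cells by title. BMCP 6 (3978 reads) and BMCP 93 (36972 reads) were left out. Doublets were not called. Symbols and coordinates came from GENCODE M21 on GRCm38 (45143 of 46078 identifiers matched) and promoter windows from RefSeq for GRCm38.p6, where 6 of the 10 members matched. Itgae, Itgb3, Itgb2 and Itgal did not.

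Counts were summed per group and divided by the summed reads on mouse genes. A gene was called 2-fold higher at a log2 ratio of 1 or more, with 1 CPM added, among genes with 5 CPM in either group. With 1 pooled sample a group, no test was made. TMM factors came from edgeR 4.0.16. The scripts ran in Python 3.11.15 and were tested on simulated data. Named genes were the members, the listed genes past 2-fold, the 3 most abundant of each list, and the 3 genes most alike each member. Ighm, Gp1ba and the granule proteases were chosen after their values were seen, as were the motifs. The members and lists were chosen with earlier results of these data known.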

Additional observations from a re-analysis of the deposited data

How the results depend on the processing

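No paired analysis was possible because the numbers in the labels only count the cells of a group, and no test was made. All alternatives listed were run. Those on the B cell gene cells, the 2 sets of cells by table order, BMCP 55 and markers without Ighm and Gp1ba were added after the data were seen.

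The 2 chains higher in BMCPs became 4 when cells with markers of another cell type were left out (Itga2b and Itgae joined, the latter from 1 cell), and the 0 chains higher in mature mast cells became 1, Itgb1, with ERCC scaling, with or without BMCP 55. Itga2b also joined in the first set by table order (-1.08) and, barely, by the mean of single-cell CPM (-1.001). Itgae also joined in the second set by table order, at 5.86 CPM in BMCPs from 1 cell. The 6 activation and adaptor genes higher in BMCPs became 1 with ERCC scaling, 1 with ERCC scaling without BMCP 55 and 2 in the first set by table order. Syk and Apbb1ip fell inside 2-fold with TMM factors (-0.91 and -0.82). They also did so with granule genes left out of the totals (-0.95 and -0.87). The 2 higher in mature mast cells became 6 with ERCC scaling, 4 without BMCP 55 in it, 4 without cells with other markers and 1 at a minimum of 20 CPM. Leaving out each cell in turn gave 2 and 0 chains throughout, and 4 to 6 and 2 activation genes. With 1 read in place of 10 CPM, the α4β7 pair was present in 26.6% of mature mast cells and 65.6% of BMCPs.

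Ratios that changed sign, apart from those of Itgb7, Itga2b and Itgb2, which lay within 2-fold, were Itgav in the first set by table order (0.16), Src in the first set by table order (2.08) and without BMCP 95 (0.23), Ptk2 without cells with other markers (-0.28), and Rasgrp2 without such cells when Ighm and Gp1ba were not counted (1.18), without the 2 BMCPs with B cell genes (0.96), in the first set by table order (1.401), and without BMCP 80 (0.97). Leaving out each cell in turn took Rasgrp2 from -2.80 to 0.97 and Src from -1.87 to 0.23. Over all genes above 5 CPM, the shares higher in BMCPs and in mature mast cells were 14.2% and 13.4% with TMM factors, 7.25% and 32.7% with ERCC scaling, and 15.6% and 13.7% with granule genes left out of the totals.

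Cells were not assigned to mice, and reads were counted without molecular identifiers. Low counts in single cells cannot separate absence of a chain from failure to capture it. Surface protein, on which the cells were sorted, was not analysed here.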
